A study of Mus musculus with 12 samples.

Results

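The 40 genes described here encode proteins of homologous recombination, of the Fanconi anemia pathway and of the checkpoint that senses damaged or stalled DNA. They were taken from a list of 41 repair and checkpoint genes, of which 40 were measured among 12643 genes in all. The list was chosen with earlier results of these data known, so counts over it describe these genes and are not an independent test. The remaining gene, Rad51b, was not analysed here. Their RNA was followed in MIN6 cells, an insulin-secreting line from a mouse beta-cell tumour, after nucleofection with siRNA to Pdx1 or with the control that the labels call NT. PDX1 is a homeobox protein needed for pancreas development and for insulin transcription. Cells labelled passage 29 were grown in DMEM with high glucose and harvested 72 h after transfection. Each siRNA gave total RNA and IP RNA, the RNA that came down with purified ribosomes in a TRAP procedure (translating ribosome affinity purification). This makes 4 groups of 3 libraries: NT total, Pdx1 siRNA total, NT IP and Pdx1 siRNA IP. The labels name neither the tagged ribosomal protein nor whether replicates were separate cultures, so p-values here measure only how these libraries vary, which could be technical variation. All cells come from 1 tumour line, and the knockdown was partial.

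Homologous recombination mends a DNA double-strand break by copying the intact sister chromatid, which makes it a repair route of the S and G2 phases. The MRE11-RAD50-NBN complex binds the broken ends, nucleases trim them to single strands, and the BRCA1 and BRCA2 proteins with their partners prepare the single strand for the search for a matching sequence. The Fanconi anemia proteins detect crosslinks between DNA strands, attach ubiquitin to the FANCD2-FANCI pair and hand the lesion over to nucleases and to recombination. The kinases ATM and ATR signal breaks and stalled forks to CHK2 and CHK1. Many of these genes are transcribed mainly in dividing cells.

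Levels are given as CPM, the count of a gene relative to the library size after TMM scaling in edgeR, and a gene counted as changed at an adjusted p under 0.05 in the edgeR quasi-likelihood test over all 12643 genes. Libraries held 29430690 to 45806807 counts, and replicates correlated across genes at r = 0.990 to 0.998. Pdx1 itself stood in total RNA at 118, 123 and 110.0 CPM with NT siRNA and 47.6, 57.4 and 47.9 CPM with Pdx1 siRNA, and in IP RNA at 104, 115 and 111 CPM with NT siRNA and 50.6, 46.7 and 39.2 CPM with Pdx1 siRNA. It was lower in every Pdx1 siRNA library, by 2.29-fold in total (log2 fold change −1.20, SE 0.10, adjusted p = 1.0e-07) and 2.42-fold in IP RNA (log2 fold change −1.27, SE 0.10, adjusted p = 4.3e-08). All 10 beta-cell markers that were looked up, including Ins1 and Ins2, were measured, and their summed level was 107000 to 118000 CPM in NT total RNA. Markers of acinar, fibroblast, immune and endothelial cells were looked up too, but none matched a measured gene, so no level is given for them. Replicate 3 of NT IP and the 3 Pdx1 siRNA IP libraries differed from the rest at some copied genes: Rpl32l, a processed copy of Rpl32, held 29 counts in that replicate against 1726 and 1260 in the other NT IP libraries, and 22 to 37 in the Pdx1 siRNA IP libraries. At the 40 repair genes this replicate differed from the mean of the other two by −0.18 to 0.21 on the log2 scale, with a median of 0.02, and at none by more than 2-fold, against 1.07% of all genes. This division of the IP libraries is called the copy split below.

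The first question was how Pdx1 depletion changed these genes in total RNA. They fell nearly throughout: 38 of the 40 were lower and 0 were higher, where 29.2% of all genes were lower and 23.8% higher. For the same 38 the Pdx1 siRNA libraries lay below all NT libraries, a separation seen at 32.6% of all genes, and at none did they lie above, as they did at 26.1%. The median log2 fold change was −1.09, with a range of −1.90 to 0.05, beside a median of −0.04 over all genes. A fall of 2-fold or more was found at 22 of the 40, against 3.63% of all genes, and 0 rose that far, against 3.38%. In IP RNA 38 fell and 0 rose as well, where 30.4% of all genes were lower and 29.2% higher. Their median there was −1.16, with a range of −2.45 to 0.08, beside −0.01 over all genes, and 24 fell by 2-fold or more, against 5.19% of all genes, while 0 rose that far, against 4.28%. The libraries lay apart for these 38 too, all lower with Pdx1 siRNA, where 32.6% of all genes lay apart lower and 32.3% higher. The comparisons in total and in IP RNA share no library, but both rest on the same fit, so they are not counted as independent repeats. Summed over the 40 genes, the level was 815 to 869 CPM in NT total RNA and 467 to 474 CPM with Pdx1 siRNA, and 634 to 652 against 316 to 326 CPM in IP RNA.

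Genes of cell division moved with this result. Of 22 proliferation genes 21 fell and 0 rose in each fraction, with a median of −1.55 in total and −2.15 in IP RNA. Their summed level was 1740 to 1870 CPM in NT total RNA and 624 to 710 CPM with Pdx1 siRNA. In IP RNA it was 1610 to 1760 CPM with NT siRNA and 452 to 493 CPM with Pdx1 siRNA, with no overlap in either fraction. Replicate 3 of NT IP was low at some of these genes. Pcna held 108, 103 and 50.1 CPM in the NT IP libraries and Ccnb1 58.5, 56.8 and 37.8 CPM. Others showed no such drop, such as Mki67 at 212, 224 and 217 CPM. The part of the copy split in the IP values of this list was not tested. The mitotic cyclin gene Ccnb2 (−2.02 in total RNA), the replication licensing gene Mcm3 (−1.67), the mitotic kinase gene Plk1 (−1.91) and the spindle checkpoint gene Bub1 (−1.93) had the smallest p-values, and E2f1 did not pass the test (−0.13, SE 0.08, adjusted p = 0.207). Of 15 target genes of p53, 12 rose and 1 fell in total RNA, with a median of 0.76, among them Phlda3 (2.93), Trp53inp1 (1.61), Cdkn1a (1.50) and Zmat3 (1.08). The part of fewer dividing cells in the fall of the repair genes was not tested, and in bulk RNA fewer cells of a kind and less RNA per cell cannot be told apart.

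**Figure D1:**
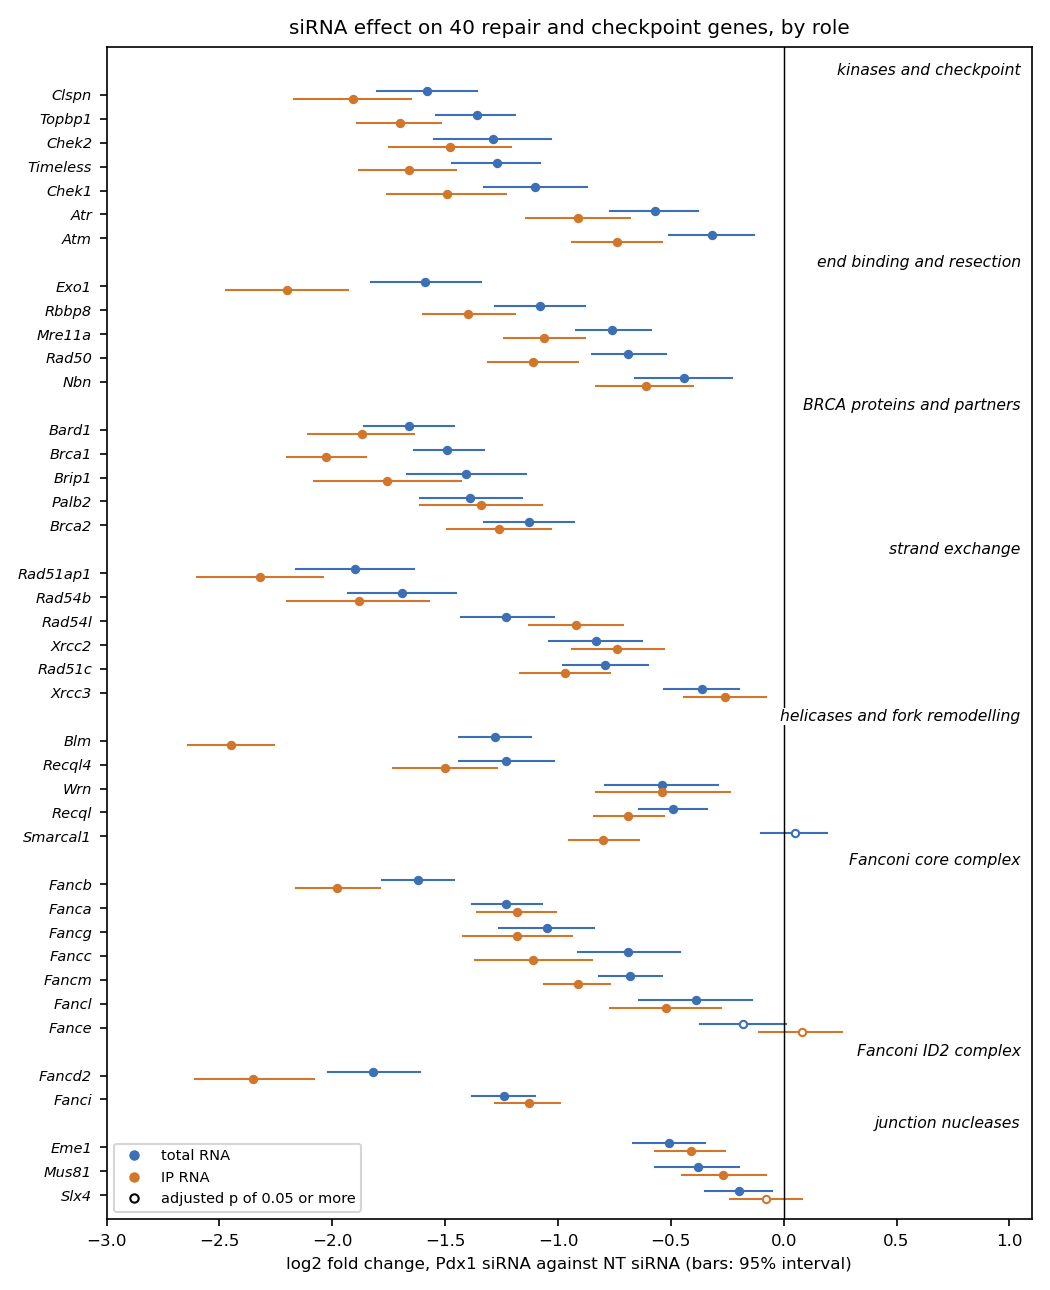
Log2 fold change of the 40 repair and checkpoint genes between Pdx1 siRNA and NT siRNA (x axis) in total RNA (blue) and IP RNA (orange), grouped by role, with bars for the 95% interval and open circles for an adjusted p of 0.05 or more (edgeR, 3 libraries per group). All filled circles lie left of 0, and the open ones belong to Smarcal1 and Fance in total RNA and to Fance and Slx4 in IP RNA.

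The kinases and checkpoint genes fell together, 7 of 7 in each fraction, with a median of −1.27 in total and −1.49 in IP RNA. The fall was small for the kinases at the top of the pathway. Atm (chromosome 9, 53437122 to 53536828, build mm10), the kinase that answers double-strand breaks, held 68.1, 84.2 and 76.9 CPM with NT siRNA and 55.5, 61.5 and 67 CPM with Pdx1 siRNA in total RNA. In IP RNA it held 31.7, 33 and 29.4 CPM with NT siRNA and 17.8, 18.4 and 20.1 CPM with Pdx1 siRNA. Pdx1 siRNA libraries were lower in both fractions, though the highest of them in total RNA, at 67 CPM, lay close to the lowest NT library, at 68.1 CPM. The change was −0.32 in total RNA (SE 0.09, adjusted p = 0.00803), and without NT total replicate 2 it was −0.20 (adjusted p = 0.0939). In IP RNA it was −0.74, SE 0.10, adjusted p = 9.3e-06. Atr (chromosome 9, 95857597 to 95953217), the kinase of stalled forks, held 24.2, 27.1 and 25.5 CPM with NT siRNA and 15.5, 17.4 and 18.8 CPM with Pdx1 siRNA in total RNA, without overlap. It held 9.96, 11.2 and 10.5 CPM with NT siRNA and 4.7, 5.56 and 6.39 CPM with Pdx1 siRNA in IP RNA. Its fall was 1.49-fold (log2 fold change −0.57, SE 0.09, adjusted p = 9.6e-05) and 1.88-fold (log2 fold change −0.91, SE 0.11, adjusted p = 3.8e-06).

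The kinases that act downstream fell further. Chek1 (chromosome 9, 36708482 to 36726658), which encodes the CHK1 kinase activated by ATR, held 16.8, 14.6 and 14.9 CPM with NT siRNA and 7.95, 6.4 and 7.31 CPM with Pdx1 siRNA in total RNA. In IP RNA the values were 9.43, 10 and 9.09 CPM with NT siRNA and 2.85, 4.04 and 3.11 CPM with Pdx1 siRNA. The groups were apart in both, with a fall of 2.14-fold (log2 fold change −1.10, SE 0.11, adjusted p = 5.3e-07) and 2.82-fold (log2 fold change −1.49, SE 0.12, adjusted p = 7.4e-08). Chek2 (chromosome 5, 110839800 to 110874140), for the CHK2 kinase activated by ATM, held 7.34, 7.68 and 7.15 CPM with NT siRNA and 3.41, 2.59 and 3.12 CPM with Pdx1 siRNA in total RNA, and 7.34, 7.85 and 8.33 CPM with NT siRNA and 3.15, 2.3 and 3.08 CPM with Pdx1 siRNA in IP RNA. All Pdx1 siRNA libraries of Chek2 were below 3.5 CPM and all NT libraries above 7 CPM. It fell 2.45-fold in total RNA (log2 fold change −1.29, SE 0.12, adjusted p = 3.7e-07) and 2.78-fold in IP RNA (log2 fold change −1.48, SE 0.13, adjusted p = 1.1e-07). Claspin, the adaptor through which ATR reaches CHK1, is encoded by Clspn, which held 22.4, 26.4 and 23.5 CPM with NT siRNA and 7.79, 9.33 and 6.95 CPM with Pdx1 siRNA in total RNA. In IP RNA Clspn held 11.8, 13.4 and 12.6 CPM with NT siRNA and 3.82, 3.35 and 2.96 CPM with Pdx1 siRNA. Its fall was the largest of this role, 2.99-fold in total (log2 fold change −1.58, SE 0.10, adjusted p = 7.5e-09) and 3.76-fold in IP RNA (log2 fold change −1.91, SE 0.12, adjusted p = 4.7e-09). Topbp1, the activator of ATR, fell from 78.6 ± 4.01 to 30.6 ± 1.85 CPM (SD, n = 3) in total RNA, and Timeless, a fork protection gene, from 40.5 ± 1.47 to 16.7 ± 2.16 CPM.

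Among the genes for end binding and resection, 5 of 5 fell in each fraction, with a median of −0.76 in total and −1.11 in IP RNA. The 3 subunits of the end-binding complex fell less than the nuclease gene Exo1. Rad50 (chromosome 11, 53649519 to 53707319), the ATPase of that complex, held 17.5, 19.8 and 18.5 CPM with NT siRNA and 12.4, 11.4 and 11 CPM with Pdx1 siRNA in total RNA and 8.24, 9.13 and 8.52 CPM with NT siRNA and 4.45, 3.76 and 3.83 CPM with Pdx1 siRNA in IP RNA. Its groups did not overlap, and its fall was 1.61-fold (log2 fold change −0.69, SE 0.08, adjusted p = 3.0e-06) and 2.16-fold (log2 fold change −1.11, SE 0.09, adjusted p = 9.5e-08). Mre11a, the nuclease subunit, was at −0.76 in total and −1.06 in IP RNA, and Nbn, the subunit that recruits ATM, at −0.44 (adjusted p = 0.00151) and −0.61 (adjusted p = 9.7e-05). Exo1 (chromosome 1, 175880768 to 175911396), the exonuclease of long-range resection, held 12.1, 14.4 and 12.4 CPM with NT siRNA and 5.25, 3.92 and 3.86 CPM with Pdx1 siRNA in total RNA. In IP RNA Exo1 held 11, 12.9 and 11.7 CPM with NT siRNA and 2.52, 2.55 and 2.64 CPM with Pdx1 siRNA. The Pdx1 siRNA libraries of Exo1 lay below every NT library in both fractions. It fell 3-fold (log2 fold change −1.59, SE 0.11, adjusted p = 1.9e-08) and 4.6-fold (log2 fold change −2.20, SE 0.13, adjusted p = 1.3e-09). Rbbp8, for the resection factor CtIP, was at −1.08 and −1.40.

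The BRCA genes and their partners fell by 2-fold or more without exception, 5 of 5 in each fraction, with a median of −1.41 in total and −1.76 in IP RNA. Brca1 (chromosome 11, 101488761 to 101551955), a ubiquitin ligase subunit that promotes resection, held 26.7, 28.5 and 29.7 CPM with NT siRNA and 10.3, 10.2 and 9.74 CPM with Pdx1 siRNA in total RNA. In IP RNA Brca1 held 18.7, 18.8 and 19.6 CPM with NT siRNA and 5.08, 4.76 and 4.24 CPM with Pdx1 siRNA. Its groups were far apart, with a fall of 2.81-fold (log2 fold change −1.49, SE 0.07, adjusted p = 3.7e-10) and 4.07-fold (log2 fold change −2.03, SE 0.08, adjusted p = 3.4e-11). Bard1 (chromosome 1, 71027535 to 71103141), which encodes the BRCA1 partner in that ligase, held 11.2, 11.7 and 11.8 CPM with NT siRNA and 3.65, 4.13 and 3.14 CPM with Pdx1 siRNA in total RNA and 7.1, 7.7 and 7.18 CPM with NT siRNA and 1.93, 2.02 and 2.03 CPM with Pdx1 siRNA in IP RNA. It fell 3.16-fold (log2 fold change −1.66, SE 0.09, adjusted p = 1.8e-09) and 3.66-fold (log2 fold change −1.87, SE 0.11, adjusted p = 1.7e-09), again with no overlap. Brca2 (chromosome 5, 150522297 to 150570147), whose product acts on the single strands that resection leaves, held 15.8, 18.9 and 17.2 CPM with NT siRNA and 7.27, 8.03 and 8.36 CPM with Pdx1 siRNA in total RNA. In IP RNA Brca2 held 9.11, 9.43 and 10.3 CPM with NT siRNA and 3.44, 4.43 and 4.03 CPM with Pdx1 siRNA. Its fall, 2.19-fold in total (log2 fold change −1.13, SE 0.09, adjusted p = 8.9e-08) and 2.39-fold in IP RNA (log2 fold change −1.26, SE 0.11, adjusted p = 1.1e-07), was the smallest of this role in both fractions. Palb2, the bridge between BRCA1 and BRCA2, was at −1.39 and −1.34, and the helicase gene Brip1 at −1.41 and −1.76.

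The genes for strand exchange, 6 of 6 lower in each fraction, spread widely. Rad51ap1 (chromosome 6, 126923415 to 126939621), whose product stimulates strand invasion, held 19.8, 17.4 and 20.3 CPM with NT siRNA and 6.5, 4.41 and 4.61 CPM with Pdx1 siRNA in total RNA. In IP RNA it held 18.5, 20.0 and 20.5 CPM with NT siRNA and 4.49, 3.57 and 3.86 CPM with Pdx1 siRNA. No NT library was below 17 CPM and no Pdx1 siRNA library above 6.5 CPM. Its fall of 3.74-fold in total RNA (log2 fold change −1.90, SE 0.12, adjusted p = 5.1e-09) was the largest of the 40 genes, and in IP RNA it fell 5-fold (log2 fold change −2.32, SE 0.13, adjusted p = 9.1e-10). Rad54b, a translocase gene, held 7.41, 7.27 and 8 CPM with NT siRNA and 2.58, 2.22 and 2.26 CPM with Pdx1 siRNA in total RNA and 3.73, 2.92 and 3.45 CPM with NT siRNA and 1.01, 0.83 and 0.929 CPM with Pdx1 siRNA in IP RNA. It fell 3.23-fold (log2 fold change −1.69, SE 0.11, adjusted p = 7.6e-09) and 3.69-fold (log2 fold change −1.88, SE 0.15, adjusted p = 4.0e-08), and its Pdx1 siRNA IP libraries held the lowest levels of the 24 genes given by library here. Rad51c, Xrcc2 and Xrcc3 had smaller changes. Rad51c (chromosome 11, 87376645 to 87404954) held 16.5, 14.8 and 16 CPM with NT siRNA and 9.73, 8.98 and 8.66 CPM with Pdx1 siRNA in total RNA and 15.6, 14.1 and 15 CPM with NT siRNA and 7.59, 8.64 and 6.59 CPM with Pdx1 siRNA in IP RNA, all NT libraries being above 14 CPM and all Pdx1 siRNA libraries below 10 CPM. It fell 1.73-fold (log2 fold change −0.79, SE 0.09, adjusted p = 3.0e-06) and 1.96-fold (log2 fold change −0.97, SE 0.09, adjusted p = 4.8e-07). Xrcc2 was at −0.83 and −0.74, and the related translocase gene Rad54l at −1.23 and −0.92. Xrcc3, the partner of RAD51C in a complex, held 11.3, 12 and 12.6 CPM with NT siRNA and 9.66, 8.38 and 9.93 CPM with Pdx1 siRNA in total RNA. In IP RNA Xrcc3 held 8.71, 9.43 and 9.37 CPM with NT siRNA and 7.76, 7.67 and 7.61 CPM with Pdx1 siRNA. The groups did not overlap, but the change was small, at −0.36, SE 0.08, adjusted p = 0.00121 in total and −0.26, SE 0.08, adjusted p = 0.0166 in IP RNA. With the copy split as a term the IP value was −0.29 (adjusted p = 0.0743).

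The Fanconi core complex, which attaches ubiquitin to FANCD2 and FANCI, gave 6 of 7 lower in each fraction, with a median of −0.69 in total and −1.11 in IP RNA. Its subunits did not move alike. Fancb (chromosome X, 164980480 to 164997272) held 15.1, 14 and 14.2 CPM with NT siRNA and 4.6, 4.8 and 4.61 CPM with Pdx1 siRNA in total RNA and 10.4, 10.6 and 9.84 CPM with NT siRNA and 2.68, 2.68 and 2.47 CPM with Pdx1 siRNA in IP RNA. With no overlap it fell 3.08-fold (log2 fold change −1.62, SE 0.08, adjusted p = 2.5e-10) and 3.94-fold (log2 fold change −1.98, SE 0.09, adjusted p = 7.6e-11). Fancl (chromosome 11, 26387084 to 26471883), the ubiquitin ligase subunit, held 5, 4.34 and 5.27 CPM with NT siRNA and 4.14, 3.49 and 3.53 CPM with Pdx1 siRNA in total RNA and 6.62, 7.85 and 7.4 CPM with NT siRNA and 4.99, 5.62 and 4.56 CPM with Pdx1 siRNA in IP RNA. Its groups did not overlap, but in total RNA the gap was narrow: the change there was −0.39, SE 0.12, adjusted p = 0.0108, and −0.34 (adjusted p = 0.0553) without NT total replicate 1 and −0.29 (adjusted p = 0.0917) without NT total replicate 3. In IP RNA Fancl was at −0.52, SE 0.11, adjusted p = 0.00104. Fance (chromosome 17, 28313530 to 28326574), the subunit that contacts FANCD2, held 10.7, 11.4 and 10 CPM with NT siRNA and 8.38, 10.4 and 9.35 CPM with Pdx1 siRNA in total RNA. In IP RNA it held 14.4, 15.3 and 16 CPM with NT siRNA and 15.7, 15.2 and 17.4 CPM with Pdx1 siRNA. Its groups overlapped in both fractions and it passed neither test (−0.18, SE 0.09, adjusted p = 0.0999 in total and 0.08, SE 0.09, adjusted p = 0.45 in IP RNA). The 95% interval was −0.37 to 0.01 in total and −0.11 to 0.26 in IP RNA, and without Pdx1 siRNA total replicate 2 the total value was −0.27 (adjusted p = 0.0317). Fanca was at −1.23 and −1.18, Fancg at −1.05 and −1.18, Fancc at −0.69 and −1.11, and Fancm, the translocase that anchors the complex, at −0.68 and −0.91. Strand is not given for the counts, and 17% of the exon bases of Fancl are shared with Vrk2 on the opposite strand and 12.3% of those of Fanca with Zfp276, so that part of their reads could be of either gene.

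The substrates of the core complex both fell. Fancd2 (chromosome 6, 113531640 to 113597020) held 14.9, 17.7 and 16.3 CPM with NT siRNA and 4.6, 4.48 and 4.8 CPM with Pdx1 siRNA in total RNA. In IP RNA Fancd2 held 6.22, 7.56 and 7.4 CPM with NT siRNA and 1.22, 1.44 and 1.45 CPM with Pdx1 siRNA. The Pdx1 siRNA libraries were below 5 CPM in total and below 1.5 CPM in IP RNA, and its fall of 3.53-fold (log2 fold change −1.82, SE 0.10, adjusted p = 7.9e-10) and 5.09-fold (log2 fold change −2.35, SE 0.12, adjusted p = 5.3e-10) was the second largest of the 40 genes in each fraction. Its partner Fanci (chromosome 7, 79392312 to 79450266) held 20.0, 20.4 and 19.6 CPM with NT siRNA and 8.35, 8.59 and 8.47 CPM with Pdx1 siRNA in total RNA and 16, 17.5 and 16.6 CPM with NT siRNA and 7.76, 7.31 and 7.72 CPM with Pdx1 siRNA in IP RNA. It fell 2.36-fold (log2 fold change −1.24, SE 0.06, adjusted p = 7.5e-10) and 2.2-fold (log2 fold change −1.13, SE 0.07, adjusted p = 1.9e-09), less than Fancd2 in both. Fanci shares 16.4% of its exon bases with Polg on the opposite strand.

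The nucleases that cut recombination junctions and crosslinked forks had the smallest medians of the 8 roles. Of the 3 genes, 3 fell in total RNA and 2 in IP RNA, with medians of −0.38 and −0.27, and none by 2-fold. Eme1 (chromosome 11, 94644972 to 94653836), the partner of MUS81, held 30.1, 29.2 and 29.5 CPM with NT siRNA and 22.9, 20.5 and 19 CPM with Pdx1 siRNA in total RNA. In IP RNA Eme1 held 50.9, 46.9 and 46.8 CPM with NT siRNA and 36.6, 37.1 and 35 CPM with Pdx1 siRNA. It was lower without overlap, at −0.51, SE 0.07, adjusted p = 4.1e-05 and −0.41, SE 0.07, adjusted p = 2.0e-04, and 12.1% of its exon bases are shared with genes on the opposite strand. Mus81, the catalytic subunit, held 14.2, 15.6 and 14 CPM with NT siRNA and 9.85, 12.6 and 11.1 CPM with Pdx1 siRNA in total RNA and 17.6, 17.3 and 17.1 CPM with NT siRNA and 15.5, 14.1 and 13.8 CPM with Pdx1 siRNA in IP RNA. Its libraries did not overlap, at −0.38, SE 0.09, adjusted p = 0.00173 and −0.27, SE 0.09, adjusted p = 0.0146. The IP value was −0.24 (adjusted p = 0.0586) without Pdx1 siRNA IP replicate 3 and −0.25 (adjusted p = 0.117) with the copy split as a term, and 16.8% of its transcript matches Gm48985. Slx4 (chromosome 16, 3979105 to 4003829), the scaffold of these nucleases, held 24.4, 25.6 and 25.3 CPM with NT siRNA and 22, 22.9 and 20.6 CPM with Pdx1 siRNA in total RNA. In IP RNA Slx4 held 14.2, 15.2 and 15.3 CPM with NT siRNA and 15.4, 13.8 and 13.1 CPM with Pdx1 siRNA, with overlap. Its value in total RNA (−0.20, SE 0.07, adjusted p = 0.0278) did not pass in 9 of 22 alternative settings, among them upper-quartile scaling, at −0.15 (adjusted p = 0.0987), and each NT total library left out, the weakest being −0.14 (adjusted p = 0.176) without replicate 2. It passed no test in IP RNA (−0.08, SE 0.08, adjusted p = 0.378).

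**Figure D2:**
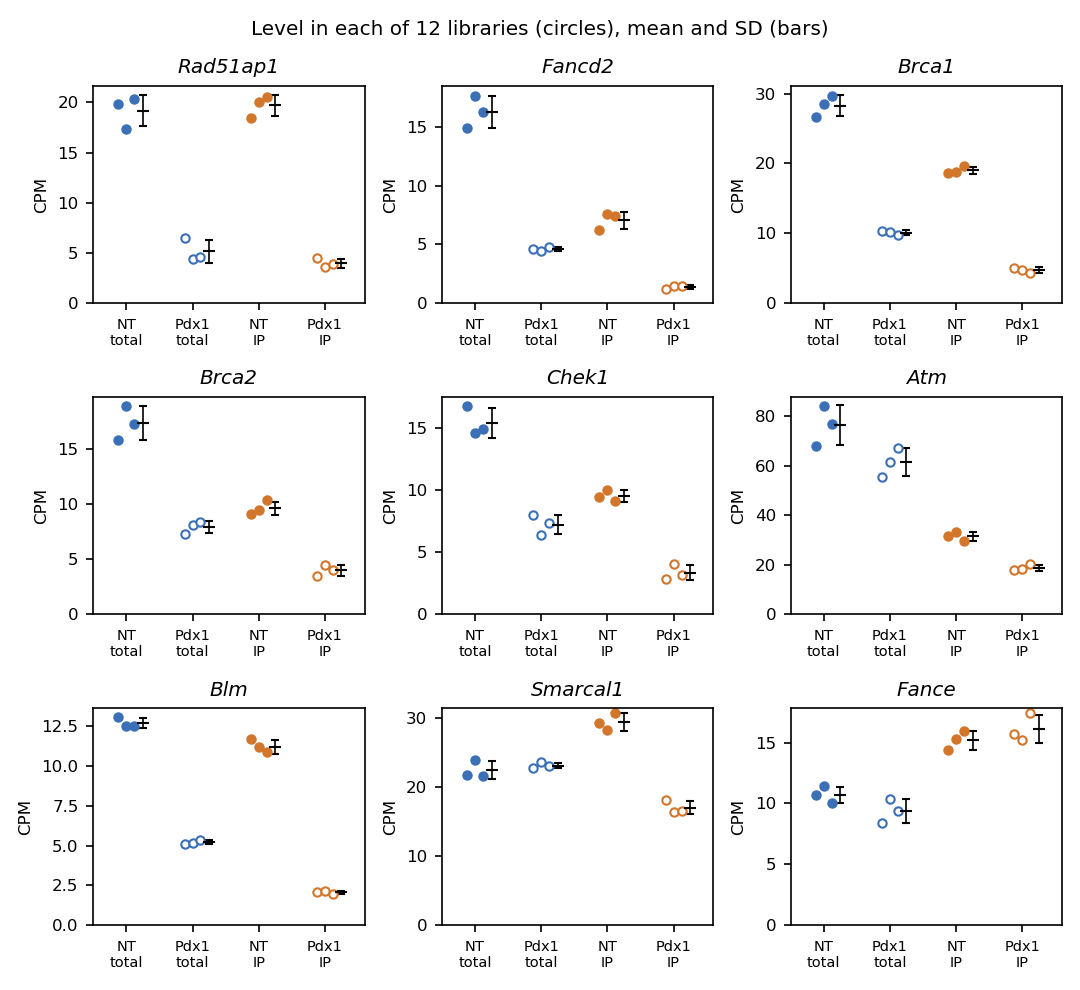
Level in CPM (y axis, from 0) of 9 repair genes in each of the 12 libraries (circles, filled for NT and open for Pdx1 siRNA, blue for total and orange for IP RNA), with the mean and SD of 3 libraries beside each group. Smarcal1 is level in total RNA and lower with Pdx1 siRNA in IP RNA, Blm is lower in both but by more in IP RNA, and the Fance groups overlap within each fraction.

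The second question was whether the siRNA effect differed between ribosome-bound and total RNA, tested as the difference of the effects (IP minus total) in the same fit. The difference passed the test at 29 of 12643 genes, 0.0554% of all genes lower and 0.174% higher. Of the 40 repair genes 2 passed, Blm and Smarcal1, both lower, and 0 were higher. Both encode fork enzymes: BLM is a RecQ helicase that dissolves recombination intermediates, and SMARCAL1 an annealing helicase that remodels stalled forks. Blm (chromosome 7, 80454993 to 80535148) held 13.1, 12.5 and 12.5 CPM with NT siRNA and 5.12, 5.19 and 5.35 CPM with Pdx1 siRNA in total RNA. In IP RNA Blm held 11.7, 11.2 and 10.9 CPM with NT siRNA and 2.06, 2.16 and 1.94 CPM with Pdx1 siRNA. The NT libraries of both fractions lay between 10.9 and 13.1 CPM, while with Pdx1 siRNA the IP libraries were all below the total libraries. Blm fell 2.43-fold in total RNA (log2 fold change −1.28, SE 0.07, adjusted p = 1.9e-09) and 5.47-fold in IP RNA (log2 fold change −2.45, SE 0.09, adjusted p = 1.9e-11), the largest fall of the 40 in that fraction. The difference was −1.17 (SE 0.12, 95% interval −1.42 to −0.92, adjusted p = 5.4e-04). Over 22 alternative settings it ranged from −1.22 to −1.12 and passed the test in 22.

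Smarcal1 (chromosome 1, 72536695 to 72636790) held 21.8, 23.9 and 21.6 CPM with NT siRNA and 22.8, 23.6 and 23 CPM with Pdx1 siRNA in total RNA, where the groups overlapped. In IP RNA Smarcal1 held 29.3, 28.2 and 30.7 CPM with NT siRNA and 18.1, 16.3 and 16.5 CPM with Pdx1 siRNA. There every Pdx1 siRNA library lay below every NT library, without overlap. The change was 0.05, SE 0.07, adjusted p = 0.609 in total RNA, with a 95% interval of −0.10 to 0.19, and −0.80, SE 0.07, adjusted p = 1.8e-07 in IP RNA, 1.74-fold lower. The difference was −0.84 (SE 0.10, 95% interval −1.05 to −0.63, adjusted p = 0.00246), and it ranged from −0.92 to −0.81 over 22 settings and passed in 22. The order of the fractions changed sign: with NT siRNA Smarcal1 was higher in IP than in total RNA (0.39, SE 0.07, adjusted p = 1.2e-04), and with Pdx1 siRNA it was lower (−0.45, SE 0.07, adjusted p = 3.5e-05). With the copy split as a term the differences were −1.12 (adjusted p = 0.00527) for Blm and −0.90 (adjusted p = 0.00537) for Smarcal1. Neither gene shares exon bases with another annotated gene or matches a copy elsewhere. The 2 transcripts of Blm in the tables had nearly equal counts, 3727 and 3723 in all, and Smarcal1 had 1 transcript.

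At the other 38 genes the difference did not pass the test. Brca1 came closest (−0.54, SE 0.11, adjusted p = 0.0564), and passed in 7 of 22 settings, among them the fit with the replicate number as a block, at −0.54 (adjusted p = 0.0308). Exo1 (−0.62, SE 0.17, 95% interval −0.98 to −0.25), Rad50 (−0.43, SE 0.12) and Fancd2 (−0.53, SE 0.16) followed, with adjusted p = 0.0967, 0.103 and 0.128. At the upper end stood Rad54l (0.31, 95% interval 0.01 to 0.60) and Fance (0.26, 95% interval −0.00 to 0.53). The median over the 40 was −0.22, beside 0.01 over all genes, and 18 of 40 had an unadjusted p under 0.05, against 2155 of 12643 genes. For the proliferation genes the median difference was −0.50, and 19 of 22 had an unadjusted p under 0.05. In the helicase role, Recql4 was at −1.23 in total and −1.50 in IP RNA, Recql at −0.49 and −0.69, and Wrn, the Werner syndrome helicase gene, at −0.54 and −0.54. The IP value of Wrn was −0.40 (adjusted p = 0.108) with the copy split as a term, and 32.9% of the exon bases of Recql are shared with Pyroxd1 on the opposite strand.

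**Figure D3:**
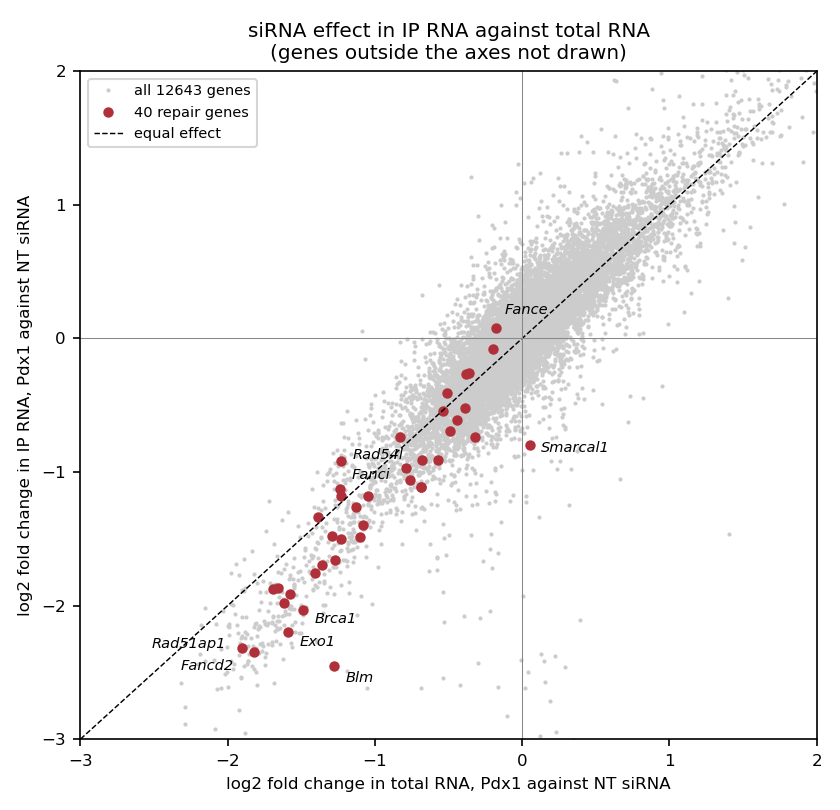
Log2 fold change between Pdx1 and NT siRNA in IP RNA (y axis) against that in total RNA (x axis) for all genes (grey) and the 40 repair genes (red), with a dashed line where both effects are equal. Blm (−1.28 in total, −2.45 in IP RNA) and Smarcal1 (0.05 and −0.80) lie farthest below the line among the 40.

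The third comparison asked how these mRNAs were represented on ribosomes, as IP against total RNA within each siRNA. With NT siRNA 26 of the 40 were lower in IP than in total RNA and 6 were higher, where 35.9% of all genes were lower and 33.8% higher. The libraries of both fractions lay apart at 26 of the 40 with IP lower and at 7 with IP higher, where 40.2% and 37.3% of all genes did. The median ratio of the 40 was −0.46, beside −0.02 over all genes. With Pdx1 siRNA 30 were lower and 5 higher, where 38.7% and 36.3% of all genes were, and the median was −0.75 beside −0.02. The lowest ratios with NT siRNA belonged to Atm (−1.28, SE 0.09, adjusted p = 2.5e-08), Atr (−1.28, SE 0.10, adjusted p = 3.5e-08), Fancd2 (−1.21, SE 0.09, adjusted p = 4.2e-08) and Rad54b (−1.16, SE 0.11, adjusted p = 2.4e-07). The highest belonged to Eme1 (0.70, SE 0.07, adjusted p = 7.5e-07), Fancl (0.58, SE 0.11, adjusted p = 2.4e-04), Fance (0.51, SE 0.09, adjusted p = 8.9e-05) and Smarcal1, given above. All 5 BRCA genes and partners were lower in IP RNA under each siRNA, with medians of −0.79 and −0.98. Such a ratio is relative to all other mRNAs of the library, and whether it reflects fewer ribosomes per mRNA was not tested.

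Ratios were lower for longer mRNAs. Transcript lengths of the 40 ran from 1871 bases for Rad51ap1 to 10724 for Brca2, with a median of 3823 against 2974 bases over all genes. Across the 40 genes Spearman's rho between length and the IP to total ratio with NT siRNA was −0.68, and across 12524 genes with a matched length it was −0.63. These are descriptions across genes of the same 6 libraries, and genes are not replicates. The 8 repair genes longer than 6000 bases had a median ratio of −0.83, beside −0.66 for all 1495 genes of that length. The 10 repair genes of 2000 to 3000 bases had a median of 0.17, beside 0.10 for 2877 genes. With Pdx1 siRNA the corresponding medians were −1.09 beside −0.78, and −0.01 beside 0.11. The 8 repair genes of 4500 to 6000 bases had −0.70 beside −0.37 with NT siRNA, and −1.07 beside −0.47 with Pdx1 siRNA. For the 13 of 3000 to 4500 bases the medians were −0.29 beside −0.17 with NT siRNA, and −0.55 beside −0.20 with Pdx1 siRNA. Rad51ap1, the only 1 under 2000 bases, was at 0.04 beside 0.50, and −0.38 beside 0.61. Between length and the siRNA effect rho was −0.19 in total and −0.27 in IP RNA across the 40, and 0.08 and −0.07 across all genes.

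**Figure D4:**
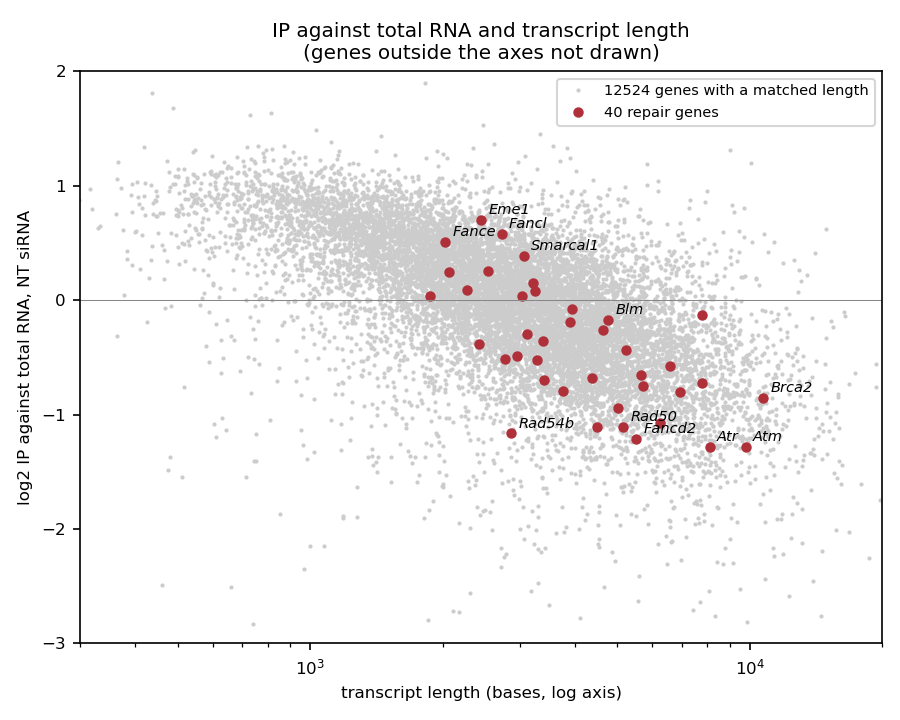
Log2 ratio of IP to total RNA with NT siRNA (y axis) against transcript length in bases (x axis, log scale) for 12524 genes (grey) and the 40 repair genes (red). The long mRNAs of Atm, Atr and Brca2 lie below 0, and the shorter ones of Eme1, Fancl and Fance above it. Not all short mRNAs lie above 0, as Rad54b, of 2870 bases, is at −1.16.

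Per kilobase of transcript, the level in NT total RNA differed widely. Topbp1 was highest at 15 CPM per kilobase, followed by Eme1 at 12.1, Recql at 10.6, Rad51ap1 at 10.3 and Xrcc2 at 10.1. Brip1 was lowest at 1.15, with Palb2 at 1.35, Brca2 at 1.61, Exo1 at 1.66 and Fancl at 1.79 above it. In Pdx1 siRNA total RNA Eme1 was highest at 8.52 and Brip1 remained lowest at 0.438 CPM per kilobase. Among the ligase pair, Brca1 stood at 4.3 and Bard1 at 2.04 CPM per kilobase with NT siRNA. Among the end-binding complex, Nbn stood at 5.85, Mre11a at 3.75 and Rad50 at 3.61. Lengths are those of the annotated transcript, so a cell line's own start or end sites could shift these values.

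Genes of the same pathway outside the list moved the same way, though with a smaller median. Of 62 measured genes from a second list, which holds replication protein A, the 9-1-1 clamp and further Fanconi factors, 46 fell and 2 rose in total RNA. In IP RNA 45 fell and 2 rose. Over all genes 29.2% fell and 23.8% rose in total RNA, and 30.4% fell and 29.2% rose in IP RNA. The medians were −0.61 and −0.59, and 15 and 17 genes fell by 2-fold or more, against 3.63% and 5.19% of all genes. Polq, for the polymerase of theta-mediated end joining, fell by 1.68 in total and 1.84 in IP RNA on the log2 scale. Mcm8, a helicase gene, fell by 1.60 and 2.06 and the resection nuclease gene Dna2 by 1.15 and 1.58. Those that rose in total RNA were the nuclease gene Ercc4 (0.29, SE 0.08, adjusted p = 0.00828) and the strand exchange gene Rad51d (0.21, SE 0.08, adjusted p = 0.0328), and in IP RNA Rad51d (0.46) and Swsap1 (0.47).

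Lists of other repair routes had smaller medians. Of 13 end-joining genes, which rejoin breaks without a template, 5 fell and 0 rose in total RNA and 7 fell and 1 rose in IP RNA, with medians of −0.17 and −0.43. Over all genes 29.2% fell in total and 30.4% in IP RNA, and nothing particular to end joining is read from its counts. The smallest p-values were those of Aplf (−1.11), Paxip1 (−0.52), Rif1 (−0.68) and the Ku70 gene Xrcc6 (−0.51), while Xrcc5, for Ku80, was at −0.01, SE 0.06, adjusted p = 0.874. Of 29 excision and mismatch repair genes 16 fell and 2 rose in total RNA, and 16 fell and 3 rose in IP RNA, with medians of −0.28 and −0.25. Here the uracil glycosylase gene Ung (−0.79) and the mismatch repair gene Pms2 (−0.67) fell in total RNA, and the nuclease gene Ercc5 rose (0.68). The difference between these lists and the 40 genes was not tested.

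**Figure D5:**
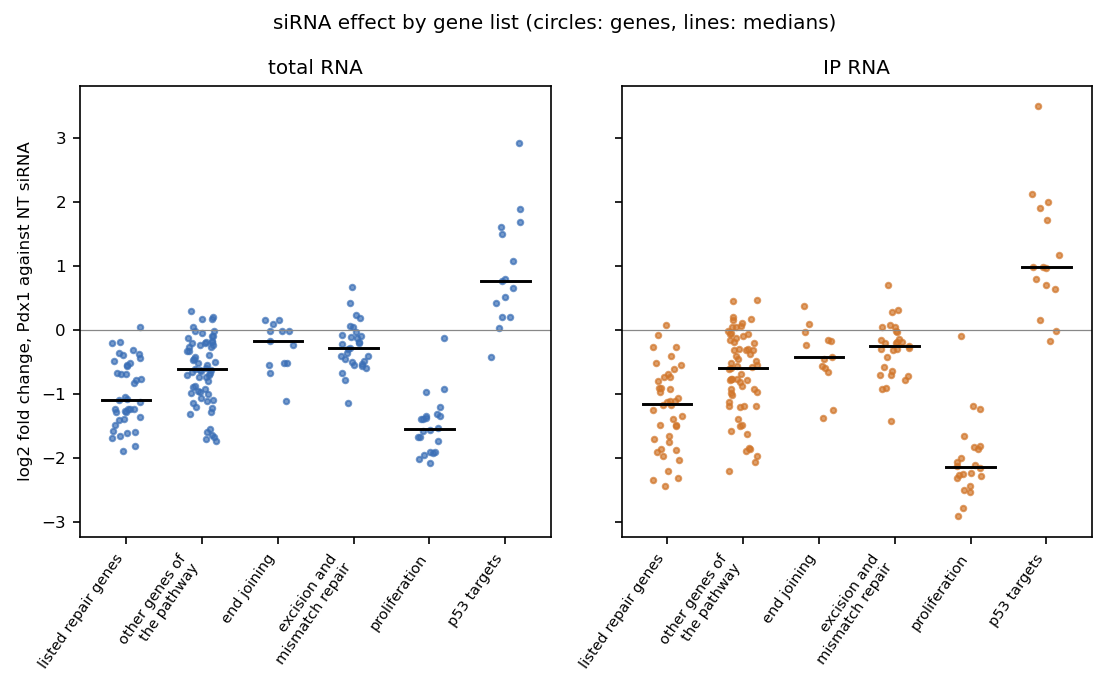
Log2 fold change between Pdx1 and NT siRNA (y axis) of each gene (circles) in 6 lists, in total RNA (left) and IP RNA (right), with a line at each list's median. The 40 listed repair genes have medians of −1.09 and −1.16, between those of the proliferation genes (−1.55 and −2.15) and of the end-joining genes (−0.17 and −0.43).

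Since the genes moved together, their promoters were searched for words bound by regulators of cell cycle genes. RefSeq promoters of GRCm38.p6, running from 250 bases before to 50 after the start, were found for 31 of the 40 genes, and where a gene had several the first listed was taken. The E2F site was searched as TTTCCCGC, TTTGGCGC, TTTCGCGC or TTTGCCGC on both strands. It was present at 7 of the 31 (22.6%), against 4.23% of 10081 promoters of measured genes and 2.32% of all 27025 in the table. The 7 genes were Brca2, Bard1, Rad51c, Fancg, Chek2, Topbp1 and Clspn, with a median log2 fold change of −1.29 in total RNA, beside −0.72 for the other 24. Among all measured genes the median was −0.26 with the word and −0.04 without it. In the shorter window from 150 bases before the start the word was present at 4 of the 31 (12.9%), against 3.09% of measured genes, and the medians with and without it were close, at −1.21 and −1.10. The stretches around 5 of these words that lie before the start are shown to let their setting be compared, 5′ to 3′ on the strand of the gene, with the word in capitals:
Brca2 (chr5:150522442-150522471, + strand): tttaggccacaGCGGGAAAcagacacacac
Bard1 (chr1:71103163-71103192, - strand): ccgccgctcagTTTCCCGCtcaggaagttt
Fancg (chr4:43010335-43010364, - strand): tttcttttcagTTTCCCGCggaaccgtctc
Chek2 (chr5:110839820-110839849, + strand): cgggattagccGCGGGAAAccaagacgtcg
Topbp1 (chr9:103305187-103305216, + strand): ccgctcggttgGCGCGAAAgtcggttcccg
In these the word TTTCCCGC appears on the gene's strand in Bard1 and Fancg and as its reverse complement in Brca2 and Chek2, and that of Topbp1 is the reverse complement of TTTCGCGC. They begin 168 bases before the start in Brca2, 209 in Bard1, 52 in Fancg, 152 in Chek2 and 129 in Topbp1. The start is that of the listed promoter, and the stretches of Brca2, Fancg, Chek2 and Topbp1 lie in the annotated span of their gene, where another transcript begins earlier. A match of letters describes the sequence and says nothing of binding.

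The CCAAT word, which NF-Y binds, was present on either strand at 19 of the 31 promoters (61.3%), against 39.4% of those of measured genes and 37.9% of all. In the shorter window the shares were 41.9% and 31.7%. The CHR element of mitotic genes, searched as TTTGAA or TTCGAA, was present at 4 (12.9%, Smarcal1, Bard1, Atr and Eme1), against 13.2% and 19.4%, and here the median in total RNA was −0.54 with the word and −1.13 without it. Genes with and without CCAAT among the 31 had medians of −1.23 and −1.07 in total RNA. Bard1, whose promoter lacks CCAAT, was at −1.66 in total RNA. Rad51ap1, Fancb and Brca1, which carry it, were at −1.90, −1.62 and −1.49. Whether the word bears on the fall was not tested. The CCAAT stretches of some genes picked among those that carry the word are given with it, or its reverse complement ATTGG, in capitals:
Rad51ap1 (chr6:126939608-126939634, - strand): ggcgagcggtgATTGGcgggctggcgc
Fancb (chrX:164980380-164980406, + strand): ctccacactgtCCAATcccatagtgtt
Brca1 (chr11:101552026-101552052, - strand): agactaggtagCCAATcgcaaacccag
Blm (chr7:80535144-80535170, - strand): tcagggattacCCAATcagaatcatcc
Smarcal1 (chr1:72583127-72583153, + strand): ttcaccaacctCCAATgggcaggcttt
Rad51ap1, Blm and Smarcal1 hold the word at 2 places, of which 1 is shown. The word shown lies 36 bases before the start in Rad51ap1, 201 in Fancb, 86 in Brca1, 161 in Blm and 113 in Smarcal1, and the stretches of Rad51ap1, Blm and Smarcal1 overlap the annotated span of their gene. These genes were picked among carriers of the word, so its presence in Blm and Smarcal1 says nothing of their difference between the fractions.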

How the data were processed

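RNA-seq counts of 12 libraries were analysed, 3 for each siRNA and RNA fraction. The authors deposited whole-number counts per RefSeq transcript, not normalized. The submitters' processing notes name TopHat2, featureCounts and mm10; versions, strand and handling of reads with several matches stay not given in the sources used here.

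Of 17133 transcripts, 16838 were assigned symbols with the RefSeq table (GRCm38.p6, the same assembly as mm10), and the other 295, with 0.577% to 0.834% of counts, were set aside. The transcript with most counts stood for each gene. A quasi-likelihood model with a mean per group was fitted to all libraries and 12643 genes in edgeR 4.0.16 (R 4.3.3, TMM factors, default filter, which removed 0 genes), with Benjamini-Hochberg adjustment over all of them. The SE is the absolute log2 fold change over the root of F. Copies were sought with minimap2 2.31 in GENCODE vM21 transcripts, which also gave exon sharing and lengths.

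The members and the lists were chosen with earlier results of these data known. Some genes of the comparison lists are not reported here. Values by library are given for 10 preset genes, the 8 lowest and 5 highest members in each fraction, members past the test of the difference, and the 4 highest and lowest in IP against total RNA. Counts were simulated over 12643 genes, of which 200 were changed. The test recovered 82% of 50 genes changed 1.5-fold in total RNA, 80% in IP RNA and 52% for the difference. Far more genes passed in the real total and IP comparisons, so these shares do not measure the recovery there. Alternatives were other scalings, DESeq2 1.42.0, other filters, a replicate block, the mean over transcripts, a term for the copy split and each library left out.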

Additional observations from a re-analysis of the deposited data

Results flagged for a closer look

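The siRNA effect differed between IP and total RNA at 2 of the 40 repair genes by the test of that difference (edgeR, 12 libraries). For Blm the difference was −1.17 on the log2 scale (SE 0.12, adjusted p = 5.4e-04), with a fall in both fractions that was larger in IP RNA. For Smarcal1 it was −0.84 (SE 0.10, adjusted p = 0.00246), with a fall in IP RNA alone passing the test. In the 3 Pdx1 siRNA libraries of each fraction, Blm held 1.94 to 2.16 CPM in IP and 5.12 to 5.35 CPM in total RNA. Smarcal1 held 16.3 to 18.1 CPM in IP and 22.8 to 23.6 CPM in total RNA. Over 22 alternative settings, each library left out among them, the difference ranged from −1.22 to −1.12 for Blm and from −0.92 to −0.81 for Smarcal1 and passed the test in 22.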

How the results depend on the processing

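No call among the 40 genes changed its direction under any alternative that was run. The number of members lower with Pdx1 siRNA stayed at 37 or 38 in total RNA under every scaling, filter and test, and at 38 in IP RNA apart from 35 with the copy split as a term and 35 without NT IP replicates 1 and 2 together. Leaving out 1 library at a time gave 36 to 39 lower in total RNA, 37 to 38 in IP RNA and 2 to 5 for the difference of the effects, where the 5 came without Pdx1 siRNA total replicate 1 and added Brca1, Atm and Timeless. For IP against total RNA the same gave 24 to 27 lower and 5 to 6 higher with NT siRNA, and 28 to 31 lower and 5 to 6 higher with Pdx1 siRNA. With the copy split as a term, ratios of IP to total RNA with Pdx1 siRNA had a larger SE, as the following genes show. Fancl was at 0.42 (SE 0.21), beside 0.45 (SE 0.12) in the main fit. Mus81 was at 0.39 (SE 0.16) beside 0.36 (SE 0.09), and Rad54l at 0.22 (SE 0.17) beside 0.34 (SE 0.10). The larger SE follows from the design, since the term is estimated only from NT IP replicate 3 against replicates 1 and 2. The cause of the shifts in the ratios themselves was not tested. The call stayed the same in every alternative for 36 of 40 members in total RNA, 37 in IP RNA, 37 for the difference, 34 for IP against total RNA with NT siRNA and 31 with Pdx1 siRNA. The fit with that term and the fit without NT IP replicates 1 and 2 rest on 1 NT IP library, assumed to vary like the other groups. Same-numbered libraries of different groups correlated at −0.13 to 0.59, with 9 of 18 pairs over 0.1. In most of the 18 pairs the value exceeded the highest one between libraries of unlike number, but not in all. Replicate 1 of NT and Pdx1 siRNA total RNA gave 0.45 against −0.31. Replicate 2 of Pdx1 siRNA IP and total RNA gave −0.07 against 0.31. Whether same-numbered libraries belong together was not tested. The replicate block gave 38 members lower in total RNA, 38 in IP RNA and 3 for the difference. The median of all genes moved by at most 0.05 (log2) between scalings. The difference of the effects was fitted on all 4 groups only. Levels near 1 CPM rest on few reads, such as Rad54b with 24 to 32 counts in Pdx1 siRNA IP libraries.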

Other observations

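Of the 29 genes whose siRNA effect differed between the fractions, the 7 lower ones were, besides Blm and Smarcal1, Bub1 (−0.85), Mki67 (−0.75), Melk (−0.71), E2f8 (−0.57) and Cep162 (−0.57); these were named after their values were seen. Bub1, Mki67, Melk and E2f8 fell in both fractions, as Blm did, and belong to cell division, where Mki67 encodes the proliferation marker Ki-67. With the copy split as a term the differences hardly moved, to −0.89 for Bub1, −0.74 for Mki67, −0.70 for Melk, −0.56 for E2f8 and −0.60 for Cep162, but their adjusted p was 0.209, 0.236, 0.176, 0.27 and 0.27 in that fit, which rests on 1 NT IP library. Blm was at −1.12 (adjusted p = 0.00527) and Smarcal1 at −0.90 (adjusted p = 0.00537) there. Smarcal1 was the only one of the 7 whose change in total RNA was above 0. Among the 22 higher ones the lipogenic regulator gene Srebf1 was at 0.06 in total and 1.17 in IP RNA, and the AP-1 gene Jund at 0.29 and 1.14.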
